A study of Mus musculus with 4 samples.

Results

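The members described here are the wide stitched regions of dimethylated histone H3 lysine 36 (H3K36me2), that is, every region of 1500 bp or more in 2 deposited peak lists. They were selected on region size alone: 479 of 7699 regions in the melatonin list and 534 of 8361 in the untreated list, or 1013 of 16060 in all. They are set against the regions of exactly 1000 bp in the same list, 6095 with melatonin and 6659 without. The material was mesenchymal stem cells (MSCs) cultured from mouse bone marrow in medium with serum. Each of the 2 conditions had 1 chromatin immunoprecipitation (ChIP) library and 1 input library made without antibody. The melatonin group received 1 µM melatonin for 24 hours and the other group is labelled untreated, although the protocol text shared by all samples speaks of melatonin. Strain, sex, the number of animals and the age of these cultures are not given in the sources used here, while the series' design text speaks of MSCs from old donors. With 1 library per condition no test between conditions was possible, and the intervals below cover counting error only.

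H3K36me2 is written by enzymes that include NSD1, NSD2 and ASH1L and is removed by demethylases such as KDM2A. In mammalian cells it is known as a broad mark that spreads over gene bodies and long intergenic stretches rather than forming sharp summits. It is read by the DNA methyltransferase DNMT3A and limits the spread of the repressive mark H3K27me3. The study's title names NSD2 and bone formation from senescent MSCs, so where the mark forms extended stretches bears on its question. Bone marrow MSCs are stromal progenitors that can become bone, fat or cartilage cells. A peak list holds no expression values, so the labelled cell type could not be checked against expressed markers.

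Few promoters met a region of any width. Wide regions were 6.22% of all regions with melatonin and 6.39% without, so the low counts below are not particular to wide regions. Of 32619 RefSeq promoter windows (250 bases before to 50 after a transcript start, GRCm38.p6), 3 met a wide region with melatonin and 2 without, while 68 and 47 met a region of any width. The 2 windows at protein-coding genes are shown because they are the only coding starts in that table that a wide region covered. Each sequence is the 250 bases before the start, 5′ to 3′ on the gene's strand, with CG dinucleotides in capitals. For Chrne, which encodes the epsilon subunit of the muscle acetylcholine receptor, the stretch lies at chr11:70619195-70619444 on the minus strand. For Plcb4, which encodes a phospholipase C beta, it lies at chr2:135764588-135764837 on the plus strand, before an internal start inside the gene body.
Chrne: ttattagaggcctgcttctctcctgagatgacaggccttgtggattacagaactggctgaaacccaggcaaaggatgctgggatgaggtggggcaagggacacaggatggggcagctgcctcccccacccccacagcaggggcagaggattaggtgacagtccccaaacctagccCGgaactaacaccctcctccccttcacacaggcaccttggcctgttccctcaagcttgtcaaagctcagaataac
Plcb4: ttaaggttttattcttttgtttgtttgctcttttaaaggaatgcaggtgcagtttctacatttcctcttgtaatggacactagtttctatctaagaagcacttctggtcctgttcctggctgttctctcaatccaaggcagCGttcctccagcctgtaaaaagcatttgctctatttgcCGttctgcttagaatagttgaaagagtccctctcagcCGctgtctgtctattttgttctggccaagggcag

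Both stretches are poor in CG dinucleotides. The Chrne stretch holds 1 and the Plcb4 stretch 3, where the median of all promoter windows is 6 in these 250 bases, and 18.7% and 37.4% of windows hold as few or fewer. Their GC content is 56.8% and 42.8%, on either side of the median of 52.4%. The Chrne region, called with melatonin, was 1583 bp wide with 13.1 ChIP tags per kb and a fold over input of 4.66. No untreated region lay within 414 kb of it. The Plcb4 region, called without melatonin, was 1687 bp wide with 11.9 ChIP tags per kb and a fold of 4.85, and the nearest melatonin region lay 3.5 kb away. The other 3 windows belong to the long noncoding RNA genes Gm45938 and Gm35615 with melatonin and Gm40153 without. None of 1005 miRNA hairpins in the RefSeq table met a wide region in either list. Wide regions covered only 0.825 Mb with melatonin and 0.939 Mb without, so this zero shows no depletion.

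Wide regions made up nearly the same part of both lists. They were 6.22% of the melatonin regions (95% Wilson interval 5.7 to 6.78) and 6.39% of the untreated regions (5.88 to 6.93), a difference of -0.165 percentage points (Newcombe interval -0.917 to 0.59). They covered 0.825 Mb with melatonin and 0.939 Mb without. The sign of this small difference turned when only regions with a p over input of at most 1e-05 (0.0386 points) or a fold of at least 6 (0.531 points) were counted. At 2000 bp or more the melatonin list held 57 regions (0.74%) and the untreated list 88 (1.05%), a difference of -0.312 points (-0.607 to -0.0184). It ranged from -0.381 to -0.259 as each chromosome was left out in turn. The interval included 0 after the removal of any 1 of 5 chromosomes. These differences describe 2 libraries and not the conditions, since regions are not replicates. The peak finder's tag minimum per window was 18 with melatonin and 17 without, before scaling for depth. Scaled to 10000000 tags these minimums are 12.7 and 12.9. The part of this threshold in the difference was not tested.

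Most wide regions were only a little wider than the limit. Their median width was 1631 bp with melatonin and 1646 bp without. Between 1500 and 1749 bp lay 320 and 353 of them, and between 1750 and 1999 bp lay 102 and 93. No region in either list had a width from 1001 to 1249 bp, so the first step above the 1000 bp window is at 1250 bp. The regions just inside the limit were 1501, 1502 and 1504 bp wide with melatonin and 1500, 1500 and 1503 bp wide without. Those just under it were 1499, 1496 and 1496 bp and 1499, 1498 and 1497 bp. Their ChIP tags ran from 11.7 to 14.1 per kb inside the limit and from 11.1 to 14.8 per kb under it. Counts did not fall evenly with width. From 1400 to 1499 bp there were 115 melatonin and 136 untreated regions, and from 1500 to 1599 bp there were more, 202 and 214.

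**Figure D1:**
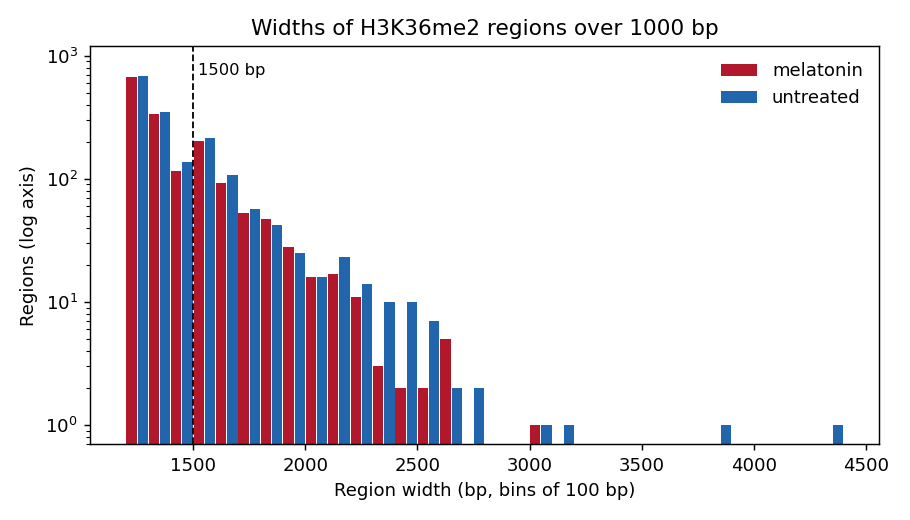
Number of regions (log axis) against region width in bins of 100 bp for the melatonin and untreated lists, leaving out the regions of exactly 1000 bp. The dashed line marks 1500 bp, where the count rises from 115 to 202 per bin with melatonin and from 136 to 214 without before it falls again, and the widest regions are 3064 bp with melatonin and 4345 bp without.

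Wide regions were long rather than dense in tags. Their median was 13.3 ChIP tags per kb, scaled to 10000000 tags, with melatonin (quartiles 12.5 and 14.2) and 13.6 without (12.8 and 14.7), against 13 and 13.3 in the 1000 bp regions. By the genome size of 2000000000 bp in the file headers, the genome mean at this scale is 5 tags per kb. The median wide region stood at 2.66 and 2.71 times this mean, and the median 1000 bp region at 2.6 and 2.66 times. Regions of 2000 bp or more had medians of 13.3 and 13.6. Wide regions held 9.91% and 10.4% of the tags in all regions on 9.83% and 10.3% of their length. The best window of a wide region held a median of 19.5 tags with melatonin and 18.8 without, against required minimums of 18 and 17. Tags, fold and p come from the same ChIP-to-input contrast that set the width, so these values describe the members and support nothing.

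Input coverage per kb in wide regions was close to that in narrow ones. A genome mean was not set beside it, as it was for ChIP tags. The median was 3.12 input tags per kb with melatonin and 3.57 without, against 3 and 3.5 in the 1000 bp regions. The median of the authors' fold was 5.3 for wide melatonin regions and 5.03 for wide untreated ones, against 5.07 and 4.84, and every region had to reach 4. A fold of at least 6 was reached by 31.1% and 22.3% of wide regions and by 29.4% and 24% of 1000 bp regions. The authors' p over input fell with width, with medians of 5.6e-12 and 7.9e-13 in wide regions and 4.2e-07 and 1.49e-07 at 1000 bp, while the tags counted per region rose. A whole wide region still rested on few tags, at medians of 27.4 scaled ChIP tags with melatonin and 30.5 without.

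**Figure D2:**
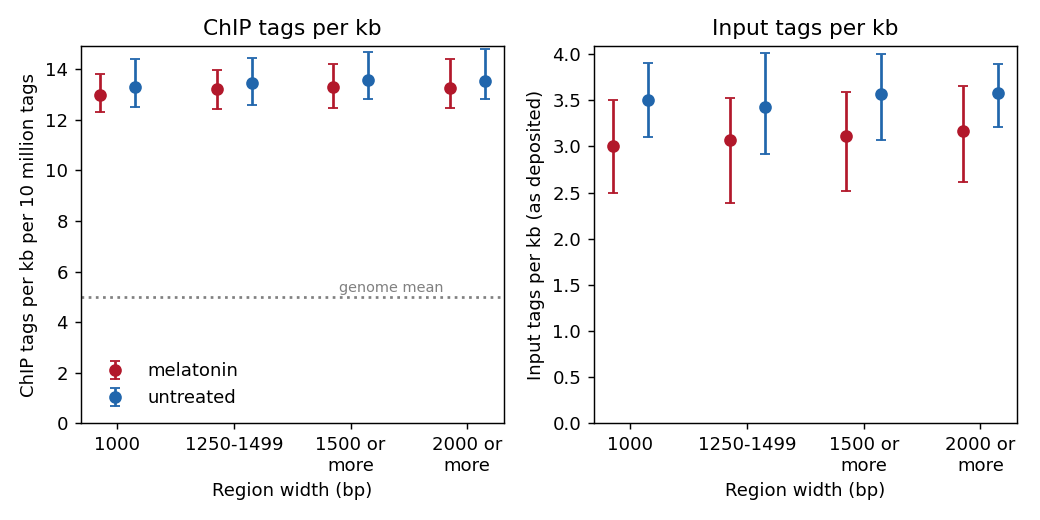
Median (points) and quartiles (bars) of ChIP tags per kb scaled to 10000000 tags (left) and of deposited input tags per kb (right) by region width in bp, for the melatonin and untreated lists. ChIP medians stay between 13 and 13.6 tags per kb at every width, above the genome mean of 5 (dotted line), and input medians stay near 3 with melatonin and 3.5 without.

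Wide regions met the other library's regions more often than narrow ones did, which is a measure the selection did not use. To give both classes the same chance, only the central 1000 bp of each region was compared with the other list. With melatonin, 40 of 479 wide centres (8.35%, Wilson interval 6.19 to 11.2) overlapped an untreated region, against 335 of 6095 regions of 1000 bp (5.5%, 4.95 to 6.1). The difference was 2.85 percentage points (Newcombe interval 0.614 to 5.73). Without melatonin, 42 of 534 wide centres (7.87%, 5.87 to 10.5) overlapped a melatonin region, against 324 of 6659 (4.87%, 4.37 to 5.41), a difference of 3 points (0.933 to 5.64). Regions of 1250 to 1499 bp lay between, at 7.02% and 7.19%. The intervals treat regions as independent although they cluster along chromosomes, so they are too narrow.

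This difference was small and did not hold in every setting. Among regions with a fold of at least 6 in both lists it was 0.393 points with melatonin (-0.733 to 3.83) and -0.349 without (-1.31 to 3.44). Requiring 500 bp of overlap left 1.28 points with melatonin (-0.335 to 3.58). Wide centres were more often covered in 10 of the 16 chromosomes with at least 10 wide regions, in each list.

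Taken over their whole width, 51 wide melatonin regions (10.6%) met an untreated region and 53 wide untreated regions (9.93%) met a melatonin region. Over all regions of any width these shares were 6.12% and 5.6%. A wider region meets more sequence, so the whole-region shares are above those of the centres by construction. At the 51 wide melatonin regions the other list had a wide region in 7 cases, one of 1250 to 1499 bp in 10 and one of 1000 bp in 34. At the 53 wide untreated regions these numbers were 7, 17 and 30, with 1 region meeting more than 1 class. Most wide regions of each list thus had no called counterpart in the other, which says nothing of signal below the calling limits.

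Wide regions had other-library regions nearby more often than narrow ones did. The median number of other-library midpoints within 100 kb was 3 for wide and 2 for 1000 bp regions, in each list. An other-library midpoint was found within 100 kb of 414 of 479 wide melatonin regions (86.4%, 83.1 to 89.2) and of 76.7% of 1000 bp regions (75.6 to 77.7), a difference of 9.76 points (6.24 to 12.7). For untreated regions the shares were 89.3% (86.4 to 91.7) and 76.9% (75.8 to 77.9), a difference of 12.5 points (9.4 to 15). Regions of 1250 to 1499 bp lay between, at 82.1% with melatonin and 84.6% without. Wide regions were higher than 1000 bp regions in 14 of 16 chromosomes with melatonin and 15 of 16 without. Within 10 kb the shares were 38.8% against 27% with melatonin and 39.5% against 25.1% without, differences of 11.9 points (7.45 to 16.4) and 14.4 points (10.2 to 18.7). The median distance to the nearest other-library midpoint was 15.2 kb for wide and 28.1 kb for 1000 bp regions with melatonin, and 15.4 and 29.2 kb without.

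**Figure D3:**
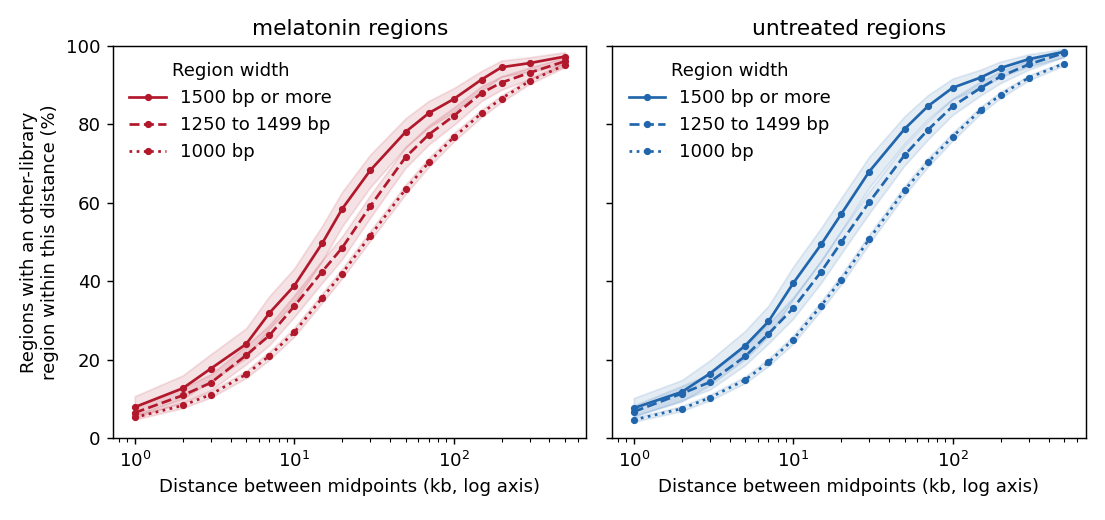
Share of regions (%) with a region midpoint of the other library within a given distance (kb, log axis), by region width, for melatonin regions (left) and untreated regions (right); bands are 95% Wilson intervals. The curve for regions of 1500 bp or more runs above that for 1000 bp regions, at 38.8% against 27% within 10 kb with melatonin and 39.5% against 25.1% without.

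Local density moved with the overlap itself. Regions were sorted by the number of other-library midpoints from 5 to 100 kb away, which leaves out the overlapping region. With 6 or more such neighbours, 17.4% of wide melatonin centres (11.6 to 25.1) and 12.8% of 1000 bp regions (10.9 to 15.1) overlapped an untreated region. With 3 to 5 neighbours the shares were 6.62% and 6.63%, and with none they were 4.17% (3 of 72 wide centres) and 2.46%. For untreated regions the shares were 11% and 11.1% with 6 or more neighbours, 9.63% and 6.12% with 3 to 5, and 6.06% (4 of 66) and 2.19% with none. With 1 or 2 neighbours the shares were 4.67% and 3.66% for melatonin regions and 4.14% and 3.59% for untreated ones. The Wilson intervals of wide and 1000 bp regions overlapped at every number of neighbours. Among regions with at least 1 such neighbour the overlap difference was 2.56 points with melatonin (0.0221 to 5.82) and 2.38 without (0.123 to 5.27). These regions still differ in their number of neighbours, so this setting does not hold density equal. In the own list, which the selection used, the nearest other region lay at a median of 20.4 kb from wide and 31 kb from 1000 bp regions with melatonin, and 15.2 and 27.3 kb without.

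In 7 places a wide region of one list overlapped a wide region of the other. These were 1.46% of wide melatonin and 1.31% of wide untreated regions. Of 1000 bp regions, which meet less sequence, 0.509% and 0.511% met a wide region of the other list. None of the 7 lay in a protein-coding gene. Of all wide regions, 21.9% with melatonin and 24.2% without had their midpoint in one, so this shows no depletion. The longest shared stretch was 1519 bp on chromosome 9, between 37261737 to 37263309 with melatonin (12.3 ChIP tags per kb, fold 12) and 37261664 to 37263256 without (13.1 tags per kb, fold 5.42). It lies 4.15 kb from Ccdc15. Both calls thus had nearly the same ends. Each fold is against that list's own input, so the folds are given side by side and not compared. On chromosome 3 a shared stretch of 1489 bp lay 8.79 kb from Clca4a, a calcium-activated chloride channel regulator gene, with 13.3 and 16.3 ChIP tags per kb. Another of 1374 bp on chromosome 3 lay 34.4 kb from Trim2, a ubiquitin ligase gene, with 11.9 and 15.3 tags per kb. On chromosome 12, 1348 bp were shared 8.51 kb from Gpr65, an acid-sensing receptor gene, where the untreated region was 2560 bp wide and the melatonin region 1617 bp.

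The remaining pairs lay farther from coding genes or overlapped less. On chromosome 6, 1201 bp were shared 96.7 kb from Akr1d1, a steroid reductase gene, with 13.1 and 14 tags per kb. On chromosome 10, 779 bp were shared 1343 kb from Cited2, a transcriptional coregulator gene, with 12.7 and 15.7 tags per kb. On chromosome 15, 230 bp were shared inside the noncoding gene Gm41323, 143 kb from Ext1, a heparan sulfate synthesis gene. The levels of a pair come from 1 library each and rest on few tags, so no order between the lists is read from them.

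Wide regions lay inside protein-coding genes less often than narrow ones. The midpoint fell in a protein-coding gene body for 105 of 479 wide melatonin regions (21.9%, 18.5 to 25.8), against 30.4% of 1000 bp regions (29.3 to 31.6), a difference of -8.51 points (Newcombe interval -12.2 to -4.43). For untreated regions the shares were 24.2% (129 of 534, 20.7 to 28) and 28.4% (27.4 to 29.5), a difference of -4.28 points (-7.89 to -0.331). The share was lower in wide regions in 15 of 16 chromosomes with melatonin and 11 of 16 without. The melatonin difference shrank to -1.85 points (-8.93 to 6.2) at a fold of at least 6, where the untreated difference grew to -11.1 points (-17.5 to -2.9). The untreated difference was -3.26 points (-7.21 to 1.07) without chromosome 13.

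Sites far from genes were more frequent among wide regions. A midpoint over 50 kb from any protein-coding gene was found in 44.3% of wide melatonin regions and 39.2% of 1000 bp regions, a difference of 5.06 points (0.508 to 9.7). In the untreated list the shares were 50.6% and 43%, a difference of 7.58 points (3.19 to 12), and at 2000 bp or more the difference was 17.2 points (6.73 to 26.9). It was 4.93 points (0.241 to 9.66) without chromosome 13. Wide regions were higher in 10 and lower in 6 of the 16 chromosomes with at least 10 wide regions, in each list. With melatonin the difference fell to 3.48 points (-4.5 to 11.8) at a fold of at least 6 and was 4.66 points (-7.49 to 17.6) at 2000 bp or more. Wide melatonin regions had a protein-coding gene at a median of 34.8 kb, against 24.9 kb for 1000 bp regions, and wide untreated ones at 50.6 against 32.4 kb. Midpoints in noncoding genes and pseudogenes outside coding genes made up 14.8% of wide regions with melatonin and 14.4% without, against 13% and 12.1%. The intervals of those differences, 1.86 points (-1.17 to 5.42) and 2.3 points (-0.542 to 5.62), include 0.

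**Figure D4:**
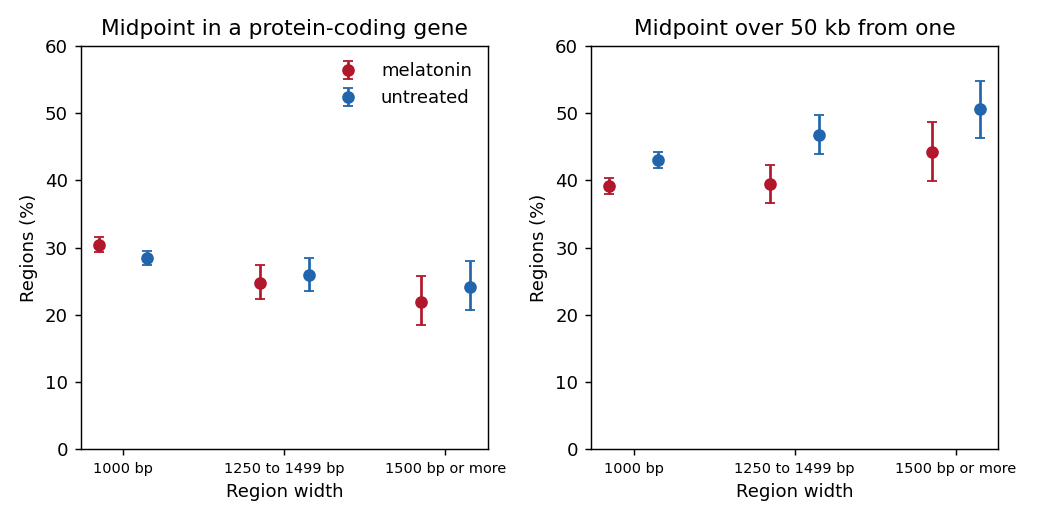
Share of regions (%) whose midpoint lies in a protein-coding gene body (left) or over 50 kb from any protein-coding gene (right), by region width, for both lists; bars are 95% Wilson intervals. Wide regions are lower on the left (21.9% against 30.4% with melatonin, 24.2% against 28.4% without) and higher on the right (44.3% against 39.2%, 50.6% against 43%).

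Of the 10 widest regions per list, more were intergenic in the untreated list than in the melatonin list. Over all wide regions the intergenic shares were close, at 61.2% with melatonin and 59.4% without. The widest of all was an untreated region of 4345 bp on chromosome 3 at 148355535 to 148359880, 456 kb from Adgrl2, a latrophilin adhesion receptor gene. It held 13.3 ChIP tags per kb with a fold of 4.64, and inside it the melatonin list had a region of 1000 bp with 14.8 tags per kb and a fold of 4.57. The second was an untreated region of 3805 bp on chromosome 13 at 90228828 to 90232633, 114 kb from Tmem167 (13.5 tags per kb, fold 5.45). A melatonin region of 1000 bp lay 6.83 kb away. The third was an untreated region of 3140 bp on chromosome 13 at 5103789 to 5106929, 495 kb from Akr1e1, a reductase gene, with 14.4 tags per kb and a fold of 4.01, just at the limit. A melatonin region of 1000 bp with 18 tags per kb lay 0.844 kb from it. Of the 10 widest untreated regions, 8 were intergenic, 1 lay in a noncoding gene and 1 in Bank1.

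The widest untreated stretches also included 2 whose nearest coding genes have well-known roles. A region of 2732 bp on chromosome 15 at 62023742 to 62026474 lay 33.4 kb from Myc, the proliferation factor gene (14.3 tags per kb, fold 4.55), and a melatonin region of 1000 bp lay 8.08 kb from it. A region of 2637 bp on chromosome 10 at 56676956 to 56679593 lay 286 kb from Gja1, which encodes connexin 43, the main gap junction protein of bone cells (11.5 tags per kb, fold 5.7). Its nearest melatonin region lay 2.24 kb away. Nearness along the chromosome does not tie a region to a gene. The other 5 of the 10 were 2565 to 3089 bp wide with folds from 4.49 to 7.16, nearest to or in Bank1, Adgrv1, Gm46240, Ctso and Rasgrp1.

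In the melatonin list 4 of the 10 widest regions lay in protein-coding genes, where 21.9% of all its wide regions had their midpoint. The widest, 3064 bp on chromosome 12 at 100705323 to 100708387, lay in Rps6ka5, the gene of the histone H3 kinase MSK1, with 12.2 ChIP tags per kb and a fold of 5.76. The nearest untreated region lay 21.5 kb away. The others were 2606 bp in Sugct, a mitochondrial CoA-transferase gene (fold 4.17), 2495 bp in Trim66 (fold 7.04) and 2468 bp in Ripor2 (fold 4.99). Outside coding genes stood 2687 bp on chromosome 1 at 163479960 to 163482647, 76.3 kb from Gorab, and 2602 bp on chromosome 2, 26.8 kb from Sema6d, a semaphorin gene (fold 7.46). The other 4 were 2539 to 2632 bp wide with folds from 4.21 to 5.34, nearest to Rfx7, Vmn1r46, Glcci1 and Tcf4. Of these 10, those whose nearest coding genes are Gorab and Tcf4 overlapped an untreated region, each of 1000 bp.

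The densest wide regions ranged from 1514 to 1933 bp with melatonin and from 1536 to 1901 bp without. With melatonin the most ChIP tags per kb, 20.5, stood in a region of 1545 bp on chromosome 10, 2.49 kb from Prf1, the perforin gene of cytotoxic lymphocytes. It was followed by 19.5 at 33 kb from Gvin1, 19.1 at 234 kb from Zeb2, 17.3 at 200 kb from the activin receptor gene Acvr2a and 17.3 at 9.17 kb from Arid5b. Without melatonin the highest, 20.6, stood in 1582 bp on chromosome 15, 292 kb from Gsdmc, followed by 18.8 at 734 kb from Zeb2, 18.1 at 66.5 kb from Mecom, 17.9 at 1044 kb from Cited2 and 17.9 at 160 kb from Tomm20. The untreated regions whose nearest coding genes are Gsdmc and Cited2 overlapped a melatonin region, and none of the 5 melatonin regions overlapped an untreated one. Over all wide regions, 10.65% with melatonin and 9.93% without met the other list. All 10 of these densest regions lay outside protein-coding genes. So did most wide regions, of which 21.9% with melatonin and 24.2% without had their midpoint in one.

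The highest folds came with little input. In the melatonin list they were 21.4 in Fars2, a mitochondrial tRNA synthetase gene, 16.8 at 60.3 kb from Snx18, 16.8 at 576 kb from Zfp608, 15.9 at 6.84 kb from Fads2 and 15.4 in Inpp4b, a phosphoinositide phosphatase gene. Their deposited input was 1.5 or 2 tags per region. In the untreated list they were 21.4 at 69 kb from Mycbp2, 15.4 in Atp6v0a4, a proton pump subunit gene, 14.1 at 339 kb from Dpyd, 12.6 at 545 kb from Adgrl2 and 12 at 3.22 kb from Gm30698, on 1.2 to 2.3 scaled input tags. None of these 10 regions overlapped the other list, which 10.65% of all wide regions with melatonin and 9.93% without did. Their ChIP levels, 11.5 to 14.5 tags per kb, lay within the range of the other wide regions.

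Few protein-coding genes carried a wide region. Of 21631 protein-coding genes on chromosomes 1 to 19 and X, 95 (0.439%) had a wide melatonin region in the body or the 2 kb on either side and 116 (0.536%) had a wide untreated one, where 6.01% and 5.78% had a region of any width. The genes were long, with medians of 215 kb with melatonin and 198 kb without, against 17.3 kb for all protein-coding genes and 118 and 122 kb for genes with any region. Longer genes offer more sequence where a region can fall. Both lists had a wide region in 21 genes, which is 22.1% of the genes with a wide melatonin region and 18.1% of those with a wide untreated one, at different sites in each, since no pair of wide regions lay in a coding gene. A region of any width in the other list was found in 67 of the 95 genes and 80 of the 116. Other genes of like length were not compared, so these counts are not read as agreement between the libraries. The gene table gives neither exons nor introns, so positions within genes are not separated.

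A total of 8 genes carried 3 or more wide regions in a list. Lrmda, a gene for melanosome differentiation, had 4 with melatonin and 5 without, among 30 and 24 regions in 1037 kb. The melatonin ones were 1694, 1989, 2002 and 1817 bp wide and the untreated ones 1579, 2377, 2301, 1552 and 1673 bp, and the closest pair across the lists lay 1.51 kb apart. Dnm3, which encodes a dynamin, had 2 with melatonin (1551 and 1612 bp, folds 5.87 and 12.6) and 3 without (2385, 1514 and 1537 bp, folds 4.63, 6.09 and 5.47). Both genes thus held wide calls in both lists, at sites that did not coincide. Both are long, at 1037 kb and 496 kb, and offer much sequence where a region can fall.

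With melatonin, 3 wide regions each lay in Esr1, Lama2 and Arhgap26. Esr1 encodes the estrogen receptor alpha, which acts in bone cells, and lies on chromosome 10 at 4611989 to 5005633. Its wide regions lay at 4615387 to 4617370, 4808482 to 4810345 and 4883761 to 4885298, with folds of 6.61, 6.43 and 5.48. They were 3 of the 13 melatonin regions in Esr1. Without melatonin Esr1 had 5 regions and none of them was wide, and a 1000 bp one overlapped the second wide melatonin region. Lama2 encodes the laminin alpha 2 chain of basement membranes and had wide regions of 1560, 2063 and 1506 bp with melatonin (folds 6.74, 6.96 and 6.58) and 1 of 1719 bp without (fold 4.65), 9.15 kb from the nearest melatonin region. Arhgap26 had 1525, 1562 and 1647 bp with melatonin (folds 7.83, 13 and 4.48), among 10 regions, and no wide region among its 6 untreated regions.

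Without melatonin, 3 or more wide regions lay in Arhgap15, Bank1 and Pard3b. Arhgap15, which encodes a Rac GTPase-activating protein, had 4 of 2110, 1652, 1625 and 1590 bp (folds 4.39, 5.29, 5.42 and 4.36) and 1 with melatonin of 1970 bp (fold 7.48). Bank1, a scaffold gene of B cell receptor signalling, had 1908, 3089 and 1917 bp (folds 6.01, 4.57 and 4.49) and 1 with melatonin of 2142 bp (fold 4.89). The 3089 bp region overlapped a melatonin region of 1342 bp with 13.9 tags per kb. Pard3b, a cell polarity gene, had 1646, 1606 and 2245 bp (folds 7.26, 4.61 and 4.76), among 31 regions, and no wide region among its 16 melatonin regions. Wide regions were 6.22% and 6.39% of all regions, so a gene with few regions would often hold none. The presence of a wide region in only 1 list rests on 1 library per condition, and the difference was not tested.

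Lineage genes of the marrow were nearly free of wide regions. Of 19 stromal progenitor genes, 27 osteoblast genes, 17 adipocyte genes and 14 chondrocyte genes, 0 had a wide region in either list, while 1, 3, 3 and 2 had a region of any width with melatonin and 3, 3, 2 and 1 without. None of the 5 melatonin and 10 untreated regions in Sox5, which encodes a factor of cartilage formation, was wide. Pparg, the main fat cell factor gene, had 2 and 4 and none was wide. The 27 senescence and secretory genes and the 18 H3K36 enzyme and reader genes had 0 as well. At 0.439% and 0.536% of all genes, lists of this size would seldom hold a member with a wide region, so these zeros show no depletion. Lists of other cell types, namely 17 myeloid, 13 endothelial and 19 lymphoid and erythroid genes, also had 0 in each list.

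Only 3 of the 12 lists held a member with a wide region. Rora, a nuclear receptor gene of the circadian loop, had 1 of 2458 bp without melatonin at 69271682 to 69274140 on chromosome 9 (12.2 tags per kb, fold 4.82), 170 kb from the nearest melatonin region. It was the only member with a wide region among 24 melatonin and clock genes. Csmd3, a large neuronal gene, had 1 of 1625 bp with melatonin at 47919889 to 47921514 on chromosome 15 (fold 12.2), among 20 genes of neuronal adhesion and synapse. Lama2, given above, was the only one of 20 extracellular matrix genes in either list.

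Genes central to the study's question held no wide region. Only 0.439% of protein-coding genes had one with melatonin and 0.536% without, so this shows no depletion. The distances below were not set against those of other genes. The gene of Runx2, the master regulator of osteoblast fate, had 1 region with melatonin and 2 without, and none was wide. The nearest wide melatonin region, 1516 bp on chromosome 17 at 44486272 to 44487788, lay 8.2 kb from the gene and held 13.7 ChIP tags per kb with a fold of 5.13. The nearest wide untreated region lay 6302 kb away. Nsd2, which encodes the H3K36 dimethyltransferase of the title, had no region, and the nearest wide ones lay 1875 kb away with melatonin and 1599 kb without. For Sp7, Alpl and Col1a1, genes of bone formation, the nearest wide regions lay 7356, 42362 and 7915 kb away with melatonin and 24484, 35218 and 10483 kb without.

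The share of wide regions was similar on most chromosomes. It was highest on chromosome 18 with melatonin (7.78%, Wilson interval 5.44 to 11) and on chromosome 10 without (8.56%, 6.86 to 10.6), and 5.03% (3.28 to 7.63) and 7.25% (5.65 to 9.26) there in the other list. Chromosome 13 had 7.06% (49 of 694) with melatonin and 8.44% (74 of 877) without. The lowest shares with at least 1 wide region stood on chromosome 16, at 2.11% and 2.06%, each on 2 regions. On chromosome 7, 6 of 85 melatonin regions were wide (7.06%, 3.28 to 14.6) and 0 of 81 untreated ones, which allows a share of up to 3.7% by the limit of 3 counts (Wilson upper bound 4.53%). The intervals of the 2 lists overlapped on all 20 chromosomes.

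**Figure D5:**
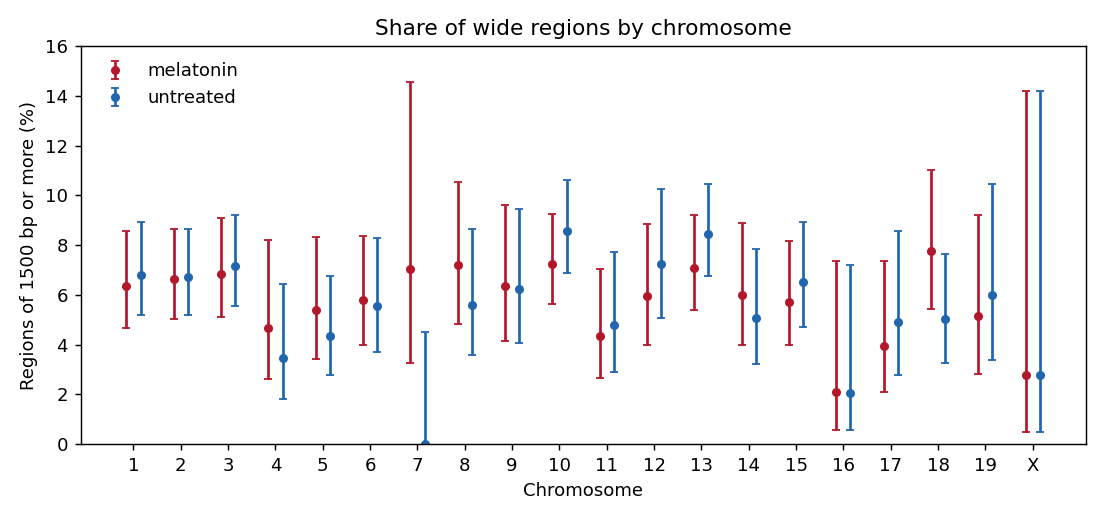
Share of regions that are 1500 bp or wider (%), by chromosome, for the melatonin and untreated lists; bars are 95% Wilson intervals. Most shares lie between 4% and 9%; chromosome 16 is at 2.11% and 2.06%, and chromosome 7 is at 7.06% with melatonin and 0 without, with overlapping intervals.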

How the data were processed

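H3K36me2 ChIP-seq was done on tagmented libraries, per the labels' protocols, with 14180076.5 (melatonin) and 13198427.5 (untreated) total tags, per the file headers. The authors called regions with HOMER findPeaks in histone style, each ChIP library against its own input, per the file headers: windows of 1000 bp, at least 4 times the input, a Poisson p no higher than 1e-04, and neighbouring windows stitched. Per the submitters' processing notes, MACS2 2.1.0, Picard 1.126 and BWA 0.7.13 were among the tools, whereas the headers name HOMER. The deposited normalized tag count is a signal per 10000000 tags. The deposited ChIP and input tags are a signal too, with the deeper library scaled down. The score deposited with each region was read as the tags of its best window. The deposited fold is a ratio of ChIP to scaled input tags by the authors, and the p-value is the authors' Poisson p, unadjusted. Folds, p and tags as deposited are compared only within a list, and tags per kb per 10000000 are set side by side across lists as a description. The region size is in bp, and the clonal ratio was not used.

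The notes name mm39, but regions on chromosomes 3 and 7 end at 159805034 and 145328623, past those chromosome ends in mm39. The share of midpoints in protein-coding genes of the GRCm38.p6 table was lowest at a shift of 0 kb (29.1% and 27.8%), against 34.2% and 32.3% at -20 kb. Coordinates were therefore read as GRCm38. A genome sequence was not used here.

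Overlap meant 1 bp or more. Shares carry 95% Wilson intervals and differences Newcombe intervals (Python 3.11.15, statsmodels 0.14.6). Overlap and interval code was tested on simulated regions. Named are the 10 widest, the 5 densest and the 5 highest-fold wide regions per list, wide pairs, genes with 3 or more wide regions, list members, the 3 regions on either side of the limit, and Runx2, Sp7, Alpl, Col1a1 and Nsd2. Sox5, Pparg, Chrne and Plcb4 were added after their values were seen. Members and lists were chosen with earlier results of these data known. Alternatives were a p of 1e-05, a fold of 6, a limit of 2000 bp, other overlap rules and flanks, and leaving out the chromosome with most wide regions. The deposited file names carry the input samples' library numbers, while the header commands name the ChIP libraries, which was followed here. Neighbourhood strata and each-chromosome removals were added after seeing the data.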

Additional observations from a re-analysis of the deposited data

How the results depend on the processing

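Of the results under their alternatives, the p limit of 1e-05 changed no call but the sign of the small library difference in wide share (0.0386 points), which also turned at a fold of at least 6 (0.531) and was larger at 2000 bp (-0.312, shares 0.74% and 1.05%), with 1 library per condition behind each value. The overlap difference included 0 with melatonin at 500 bp of overlap (1.28), at a fold of 6 (0.393) and at 2000 bp (5.03), and reversed without melatonin at a fold of 6 (-0.349). The gene body difference included 0 with melatonin at a fold of 6 (-1.85) and at 2000 bp (-9.38), and without melatonin at 2000 bp (-9.12) and without chromosome 13 (-3.26). The difference far from genes included 0 with melatonin at a fold of 6 (3.48) and at 2000 bp (4.66). The share with an other-library neighbour included 0 with melatonin at 2000 bp only (9.3). Settings at 2000 bp rest on 57 and 88 regions and those at a fold of 6 on 149 and 119, which widens the intervals. Genes with a wide region numbered 161 with melatonin at 10 kb flanks (155 without), and 40 and 24 at a fold of 6, against 95 and 116. Depth limits all of this: a wide region rests on about 27.4 or 30.5 ChIP tags. No paired analysis was possible because each condition has 1 ChIP library.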

Other observations

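The 1 Mb windows with most wide regions are named here. They were picked for their counts after the values were seen, and their gene numbers were not set against those of all windows. Another window with several wide regions, from 4000001 on chromosome 13, held 5 untreated ones and 9 protein-coding genes. The median number of protein-coding genes within 500 kb was 5 for wide and 5 for 1000 bp melatonin regions. It was 3 and 4 for untreated ones. With melatonin the most wide regions, 7 each, lay in the windows from 45000001 on chromosome 2, which holds only Zeb2 among protein-coding genes, from 35000001 on chromosome 12, with Ahr, the aryl hydrocarbon receptor gene, and 3 others, and from 55000001 on chromosome 18, with no protein-coding gene. The untreated list had 6, 5 and 3 wide regions there. Without melatonin the window from 5000001 on chromosome 13, whose only coding gene is Klf6, held 12 wide regions among 72, against 5 among 36 with melatonin. The window from 62000001 on chromosome 15, with no protein-coding gene, held 9 among 43 without melatonin and 1 among 38 with it, and the window from 16000001 on chromosome 10, also without one, held 8 among 67 and 3 among 33.

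Some other windows are given as examples, with no theme tested. The window from 97000001 on chromosome 10 holds Dcn, Lum, Kera and Epyc, genes of small leucine-rich proteoglycans that bind collagen. It had 4 wide regions among 31 without melatonin and 0 among 18 with it. The window from 128000001 on chromosome 8, with the integrin gene Itgb1 and the neuropilin gene Nrp1, had 4 among 26 with melatonin and 3 among 16 without. Wide melatonin regions numbered 4 and untreated ones 0 in the windows of Esr1 (chromosome 10 from 4000001, 15 and 8 regions in all) and Acvr2a (chromosome 2 from 48000001, 18 and 15 in all). These differences were not tested.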
